A study of Homo sapiens with 2 samples.

Results

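Narrow gaps between neighbouring protein-coding genes are places where the starts or ends of adjacent genes lie side by side. Here the S9.6 peaks that touch such gaps were described in cells of wild-type A549, a line grown from a human lung cancer. Protein-coding gene spans of chromosomes 1 to 22 were taken from RefSeq (GRCh38.p14) and sorted by start, and each neighbouring, non-overlapping pair with 1 to 1000 bp between its spans gave a gap. There were 1987 such gaps, formed by 3654 genes. A peak was a member if at least 1 of its bases lay in a gap. This gave 740 member peaks, 1.64% (95% Wilson interval 1.53 to 1.77) of the 44994 peaks on these chromosomes and a subset of the 47810 peaks in the whole list.

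The series holds 2 CUT&Tag libraries, 1 made with S9.6, which recognises hybrids of RNA and DNA, and 1 made with IgG. Both came from wild-type cells of this line, with no treatment named in the labels. The peak list of the S9.6 library was used, and IgG was not analysed here. With a single S9.6 library there was no replicate, no test between libraries was possible, and every interval covers counting error only. The list gives for each peak a maximum coverage, the highest number of fragments stacked over a base, and a total signal, the coverage summed along the peak. The number of reads in the library is unknown.

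An R-loop forms when newly made RNA pairs again with its template DNA strand and displaces the other strand. R-loops are best known at the starts of active genes with GC-rich promoters and have also been described at gene ends, where they take part in transcription termination. Genes packed closely head to head often share a single GC-rich promoter region from which RNA polymerase II sets out in both directions, and many such pairs encode housekeeping proteins. In this text a pair is divergent when the starts of both genes face the gap, convergent when both ends face it, and tandem when the genes point the same way, so that the gap holds the end of the upstream gene and the start of the downstream gene. Strand came from RefSeq promoter entries, which matched 15101 of 19126 protein-coding genes. The orientation was therefore known for 732 divergent, 370 tandem and 333 convergent gaps, and 552 gaps were of unmatched strand.

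The sequences of some narrow divergent gaps show what lies between such genes. They were read from RefSeq promoter entries (GRCh38.p14), on the plus strand from 5′ to 3′, and cover the whole gap. Capitals mark matches on either strand to short promoter motifs: the CCAAT box (CCAAT, or ATTGG on the other strand), the GC box bound by SP1-type factors (GGGCGG or CCGCCC), and ACTTCCG or CGGAAGT, which ETS-type factors recognise. The first 4 had the highest peaks among divergent gaps of at most 250 bp whose right-hand promoter entry begins at the edge of the gene. HSPD1/HSPE1, the pair for the mitochondrial chaperonin and its co-chaperonin, is a textbook case of a shared promoter. The gaps lie at chr7:100586130-100586327, chr11:58578892-58579062, chr14:77320884-77321035, chr19:36054763-36054896 and chr2:197500275-197500378.
LRCH4/FBXO24: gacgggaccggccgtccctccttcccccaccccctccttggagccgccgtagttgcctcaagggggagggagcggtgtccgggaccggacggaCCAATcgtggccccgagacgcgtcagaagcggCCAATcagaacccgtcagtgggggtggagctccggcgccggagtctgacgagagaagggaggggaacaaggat
LPXN/ZFP91: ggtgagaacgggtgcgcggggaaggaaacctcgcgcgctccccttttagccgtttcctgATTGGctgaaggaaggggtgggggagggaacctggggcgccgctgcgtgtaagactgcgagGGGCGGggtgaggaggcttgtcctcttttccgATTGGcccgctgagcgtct
POMT2/GSTZ1: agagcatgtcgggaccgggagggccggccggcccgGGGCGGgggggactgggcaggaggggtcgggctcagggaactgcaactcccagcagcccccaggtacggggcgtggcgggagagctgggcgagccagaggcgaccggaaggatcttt
THAP8/WDR62: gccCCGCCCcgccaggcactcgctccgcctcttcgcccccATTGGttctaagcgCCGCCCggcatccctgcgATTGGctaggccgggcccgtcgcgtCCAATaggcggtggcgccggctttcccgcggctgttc
HSPD1/HSPE1: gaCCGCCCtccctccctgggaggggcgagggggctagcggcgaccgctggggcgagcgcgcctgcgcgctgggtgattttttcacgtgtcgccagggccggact

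The next gaps had no peak in the list and are shown for contrast. COL4A1/COL4A2, a pair of basement membrane collagen genes, is another textbook shared promoter, and the other gaps are the first in alphabetical order among those of 100 to 250 bp without a peak. They lie at chr13:110307158-110307283, chr20:45857393-45857613 and chr6:143450696-143450804. CCAAT boxes stand in LRCH4/FBXO24, LPXN/ZFP91 and THAP8/WDR62 above and also in COL4A1/COL4A2 and ACOT8/ZSWIM3 here, and ADAT2/PEX3 holds none of the motifs.
COL4A1/COL4A2: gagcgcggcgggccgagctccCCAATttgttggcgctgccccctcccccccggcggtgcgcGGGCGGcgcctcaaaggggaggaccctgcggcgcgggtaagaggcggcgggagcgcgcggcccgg
ACOT8/ZSWIM3: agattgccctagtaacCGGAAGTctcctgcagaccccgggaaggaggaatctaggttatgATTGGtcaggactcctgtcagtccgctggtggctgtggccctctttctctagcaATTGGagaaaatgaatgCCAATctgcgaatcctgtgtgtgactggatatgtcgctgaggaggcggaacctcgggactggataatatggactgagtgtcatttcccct
ADAT2/PEX3: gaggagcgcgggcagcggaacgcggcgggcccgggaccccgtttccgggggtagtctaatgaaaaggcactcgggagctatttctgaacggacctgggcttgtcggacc

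S9.6 peaks touched 729 of the 1987 gaps (36.7%, 95% Wilson interval 34.6 to 38.8) and covered 27.1% of the gap bases, 190 of 700 kb. Of these gaps, 718 had 1 peak and 11 had 2, and no peak reached into more than 1 gap. In 365 of the 729 gaps (50.1%) peaks covered every base between the genes, so that signal ran from the edge of one gene to the edge of the other. Only 16 gaps lay under a further protein-coding span, and 7 of these had a peak.

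Orientation separated the gaps. Divergent gaps had a peak in 375 of 732 cases (51.2%, 95% Wilson interval 47.6 to 54.8), tandem gaps in 129 of 370 (34.9%, 30.2 to 39.9) and convergent gaps in 29 of 333 (8.71%, 6.13 to 12.2). The share over all gaps was 36.7%, and in gaps of unmatched strand 196 of 552 (35.5%, 31.6 to 39.6). Divergent gaps thus exceeded convergent gaps by 42.5 percentage points (95% interval 37.5 to 47.0), and the interval of tandem gaps overlapped neither of the others. Within tandem gaps the strand made little difference, with peaks in 35.3% of 204 gaps between genes on the plus strand and 34.3% of 166 gaps on the minus strand. Peaks covered 50.04% of the bases of divergent gaps, 24.8% of tandem gaps and 6.66% of convergent gaps. On single chromosomes only divergent and convergent gaps were compared. On 20 of the 20 chromosomes with gaps of both kinds, the share was higher in divergent than in convergent gaps. On 9 of them no convergent gap had a peak, and these 9 had from 2 to 25 convergent gaps each.

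Divergent gaps were the narrowest, with a median of 173 bp against 474.5 bp in tandem and 373 bp in convergent gaps. Within each class of width the divergent share was the highest. In gaps of at most 100 bp it was 37.9% of 182 divergent gaps, 23.1% of 26 tandem gaps and 8.77% of 57 convergent gaps. From over 300 to 500 bp it was 67.3% of 107, 35.6% of 87 and 7.94% of 63. From over 750 to 1000 bp it was 72.7% of 22, 40.2% of 87 and 13.6% of 59. Of the 48 convergent gaps from over 100 to 200 bp none had a peak, which allows a share of up to 6.25% by the limit of 3 counts used for a count of 0 (Wilson upper limit 7.41%). The best peak of a divergent gap also stood higher in wider gaps, with a median maximum coverage of 4 up to 200 bp, 5 from over 200 to 300 bp and 6 in each wider class. Divergent gaps with a peak had a median width of 206 bp, against 144 bp in those without.

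**Figure D1:**
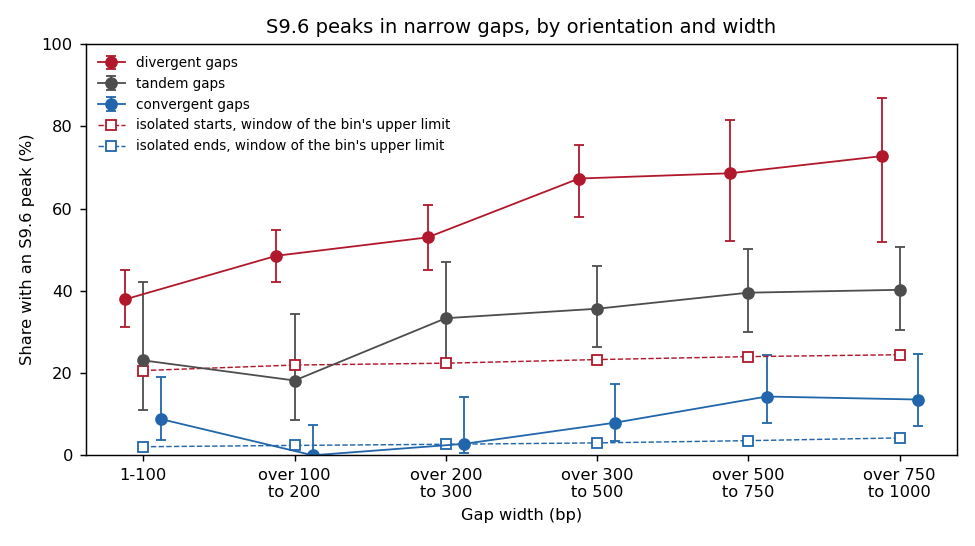
Share of gaps with an S9.6 peak (%, y axis) by gap width (bp, x axis) for divergent, tandem and convergent gaps, with 95% Wilson intervals as bars. Open squares give the share of isolated gene starts and ends with a peak in an outside window as wide as the bin's upper limit. Divergent gaps rise from 37.9% to 72.7% across the widths and lie above tandem and convergent gaps in every class.

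Starts and ends of genes with no protein-coding neighbour within 10000 bp gave the level beside which these gaps stand. A peak reached into the 1000 bp outside 2065 of 8445 isolated starts (24.5%, 95% Wilson interval 23.5 to 25.4) and 317 of 7504 isolated ends (4.22%, 3.79 to 4.70). In windows of 200 bp the shares were 21.9% and 2.399%. The divergent share of 48.5% in gaps from over 100 to 200 bp (interval 42.2 to 54.9) lay above the share of isolated starts, and a divergent gap holds a pair of starts where an isolated window holds 1. The tandem share of 18.2% at that width (interval 8.61 to 34.4) could not be told from that of isolated starts. In gaps from over 300 to 500 bp the tandem interval, 26.4 to 46.1, lay above the 23.3% of isolated starts in 500 bp windows. Isolated genes were not matched to gap genes for expression, GC content or function.

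Wider gaps showed the same order. From over 1000 to 2000 bp a peak lay in 25 of 44 divergent gaps (56.8%, interval 42.2 to 70.3), 100 of 298 tandem gaps (33.6%) and 26 of 162 convergent gaps (16.05%). From over 2000 to 5000 bp the shares were 46.3% of divergent (interval 38.2 to 54.7), 40.3% of tandem (36.6 to 44.2) and 16.1% of convergent gaps. There the divergent and tandem intervals overlapped. In the same order they were 52.5%, 39.0% and 22.9% from over 5000 to 10000 bp, and 69.3%, 57.9% and 50.1% beyond 10000 bp. Per 100 kb of gap there were 233 peaks in divergent gaps of at most 1000 bp, against 43.9 in divergent gaps from over 1000 to 2000 bp and 10.9 from over 5000 to 10000 bp. Since a peak counts if it touches 1 base, this density rises in narrow gaps by the way it is counted. Member peaks had a median width of 802.5 bp, wider than most of the gaps, so a peak could touch a narrow gap while lying mostly in the genes beside it. At the 1000 bp limit, the widest gaps with a peak were LSR/USF2 (997 bp, maximum coverage 3) and SMIM7/TMEM38A (994 bp, maximum coverage 10), and the narrowest outside it were SLC26A6/CELSR3 (1001 bp, maximum coverage 4) and H3C14/H2AC18 (1009 bp, maximum coverage 4).

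Member peaks tended to be higher and wider than the other peaks in the list. Their maximum coverage had a median of 4 (quartiles 3 and 6), against 2 (2 and 3) in the 44254 other peaks on these chromosomes. Their median total signal was 1706.5 against 983, and their median width 802.5 bp against 685 bp. A wide peak touches a gap more easily, so part of the contrast in width is set by the rule. A maximum of at least 5 was reached by 365 of 740 members (49.3%, 95% Wilson interval 45.7 to 52.9), against 8.87% of the other peaks. At least 10 was reached by 65 members (8.78%, interval 6.95 to 11.04), against 1.27%. The contrast was smaller beside the 7513 non-member peaks within 1000 bp of a protein-coding boundary. Those peaks had a median maximum of 3 and a median width of 715 bp, and 26.3% reached at least 5 and 3.41% at least 10. The lowest members had a maximum of 2, which 83 of them shared, 155 had 3 and 137 had 4.

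The height followed orientation as the share did. In divergent gaps 54.7% of 380 members reached at least 5 (interval 49.7 to 59.7), in tandem gaps 43.1% of 130 (34.9 to 51.7) and in convergent gaps 13.3% of 30 (5.31 to 29.7). At isolated starts 39.3% of 2127 peaks did so (37.2 to 41.4), and at isolated ends 8.98% of 323 (6.32 to 12.6). Members in divergent gaps thus lay above peaks at isolated starts, and members in tandem gaps could not be told from them. The windows differ, since peaks at isolated starts came from the 1000 bp outside them, while divergent gaps had a median width of 173 bp. Heights were not matched for width. Median total signal was 1827 in divergent, 1561.5 in tandem and 1165 in convergent gaps, against 1385 at isolated starts and 1041 at isolated ends. No convergent member went beyond a maximum of 5.

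**Figure D2:**
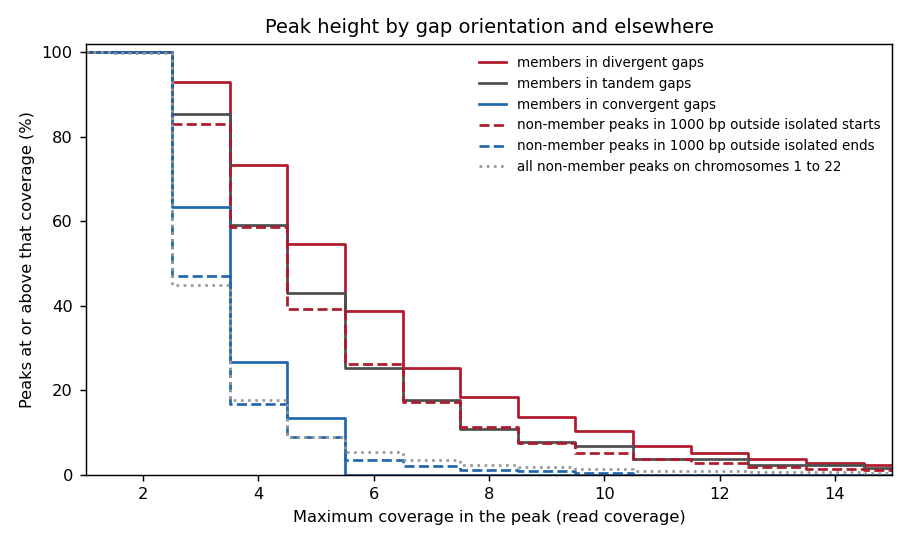
Share of peaks (%, y axis) at or above each maximum coverage (x axis) for members in divergent, tandem and convergent gaps, and for non-member peaks near isolated starts, near isolated ends and on chromosomes 1 to 22 as a whole. At a coverage of 5 the divergent line stands at 54.7% and the line of all non-members at 8.87%.

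The highest member, on chromosome 19, lay over the gap between RRAS, a small GTPase of the RAS family, and SCAF1, at a maximum coverage of 22, and its total signal was 19584 over 3148 bp. Among gaps known to be divergent, the highest was CEP89/FAAP24, where FAAP24 is a DNA-binding partner of the Fanconi anaemia core complex, with a maximum of 20. Next came COPZ2/NFE2L1 and TBC1D10B/MYL11, each with 19. NFE2L1 is a transcription factor that raises proteasome genes, and MYL11 encodes a myosin light chain of fast skeletal muscle. The peak list carries no strand and so does not assign the signal to either gene of a pair. LRCH4/FBXO24 reached 18, and LPXN/ZFP91, POMT2/GSTZ1 and TOM1L2/DRC3 reached 16 each. POMT2 is a protein O-mannosyltransferase, and GSTZ1 an enzyme of tyrosine breakdown.

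FAM72B/SRGAP2C, with a maximum of 20, belongs to a family of near-identical copies on chromosome 1, and BOLA2B/SLX1A, with 12, to a duplicated segment of chromosome 16. The copy to which those fragments belong is uncertain. The largest total signal among members, 28728 over 4497 bp, was at TNFRSF12A/HCFC1R1, of which TNFRSF12A is the receptor for the cytokine TWEAK. That peak was also the widest member, with a maximum coverage of 14, and its summit lay inside TNFRSF12A, outside the 236 bp gap. ZCWPW1/MEPCE had a total signal of 14668 with a maximum of 12 around a gap of 86 bp, where MEPCE caps the 7SK RNA.

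Among tandem gaps, the highest peak was at CRIP1/TEDC1, reaching 18 and summing to a total signal of 16027. It covered the 907 bp gap, but its summit lay inside TEDC1, 1618 bp from the gap's centre. MIA/RAB4B followed with 15 and was 1 of the 11 gaps with a pair of peaks, and ALKBH6/CLIP3 had 14. MC1R/TUBB3, with 12, joins a melanocyte receptor gene to a neuronal tubulin gene. Among convergent gaps the top value of 5 was shared by PLCB3/BAD, RNF167/PFN1, LIN37/HSPB6 and GPX4/SBNO2. The glutathione peroxidase GPX4 protects membrane lipids, and PFN1 binds actin. The convergent peak at PLCB3/BAD was broad, 3131 bp with a total signal of 5604, and ran over the 375 bp gap into both genes. TRIM46/MUC1, ending at the epithelial mucin gene MUC1, had a convergent peak of 4 over 405 bp.

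**Figure D3:**
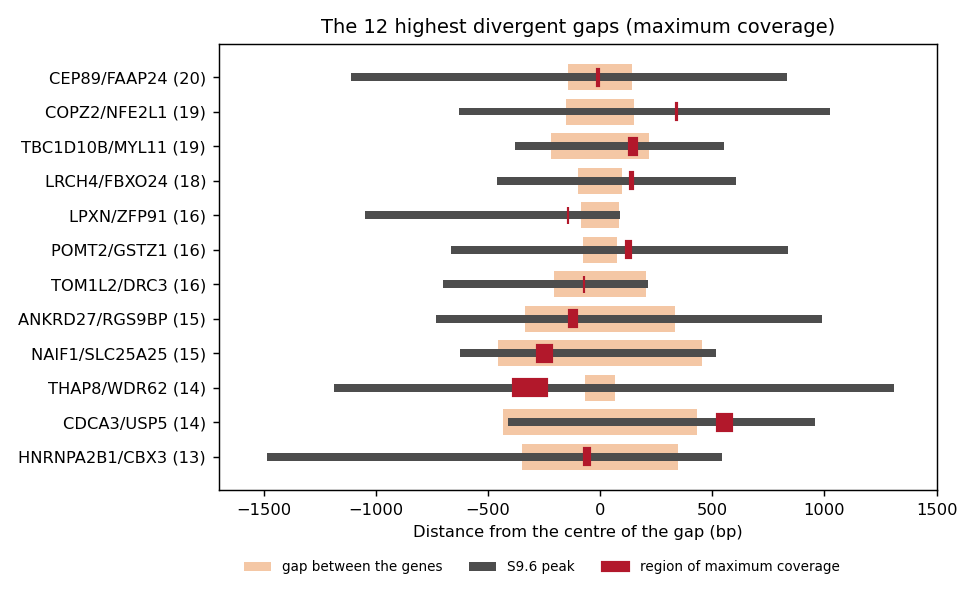
Extent of the S9.6 peak (dark bars) and its region of maximum coverage (red) relative to the gap (orange) in the 12 divergent gaps with the highest peaks, by distance from the gap's centre (bp, x axis). Numbers in brackets are the maximum coverage, from 20 at CEP89/FAAP24 to 13 at HNRNPA2B1/CBX3, and in 11 of the 12 the peak covers the whole gap.

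The summit, taken as the middle of the region of maximum coverage, lay in the gap itself for 332 of 740 members (44.9%, interval 41.3 to 48.5). In 202 it lay in the gene on the left and in 206 in the gene on the right, and in none beyond both. Of 380 summits at divergent gaps, 76.8% lay within 250 bp of the gap's centre, and the median distance was 127 bp. A member has to touch its gap and divergent gaps were the narrowest (median 173 bp), so part of this nearness is set by the rule. Divergent summits fell in the gap in 43.9% of cases, against 47.7% of tandem summits. They lay in the left gene in 29.2% and in the right gene in 26.8%. Left and right follow the genome's coordinates and set no order between the genes of a divergent pair. At single pairs the summit could lie to one side, as in LPXN/ZFP91, where the peak ended just inside ZFP91 and its summit was in LPXN.

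In tandem gaps the summits leaned toward the start of the downstream gene. Of 130 summits, 96 (73.8%, interval 65.7 to 80.6) were nearer to that start than to the end of the upstream gene. They lay in the gap in 62 cases, in the downstream gene in 48 and in the upstream gene in 20, with a median position 112.5 bp before the downstream start. In gaps over 300 bp, where start and end are best told apart, 78 of 101 (77.2%, interval 68.1 to 84.3) were nearer to the start. In gaps of at most 300 bp it was 18 of 29 (62.1%, interval 44.0 to 77.3), which could not be told from equal shares. Convergent summits were few and scattered, 11 of 30 in the gap, with a median distance of 289.5 bp from its centre.

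**Figure D4:**
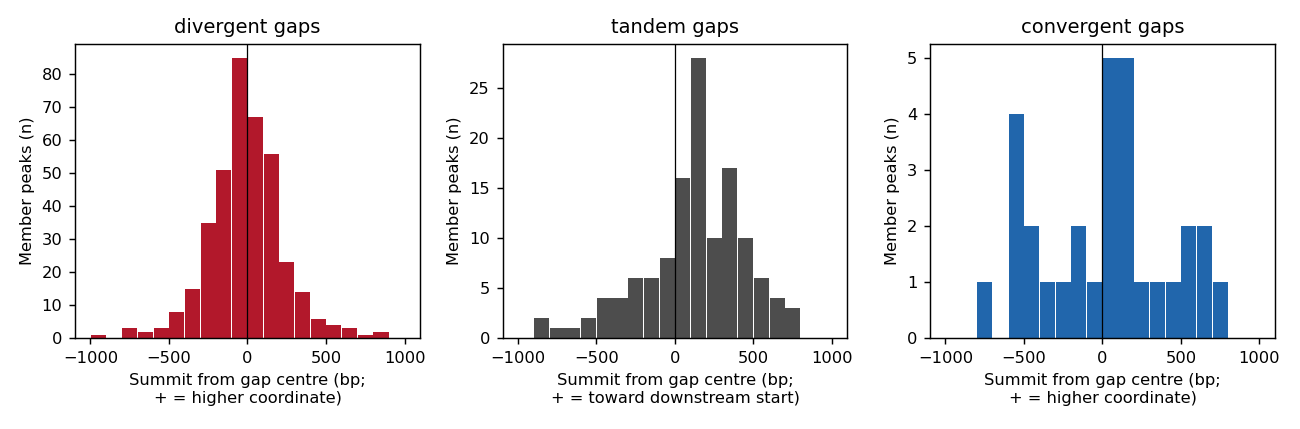
Number of member peaks (y axis) by position of the summit relative to the gap's centre (bp, x axis, 100 bp bins) in divergent, tandem and convergent gaps, with tandem gaps turned so that positive values point to the downstream start. Divergent summits, at gaps of the narrowest kind, lie on both sides of 0, tandem summits lie mostly on the positive side, and the 30 convergent summits are spread out.

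The sequence before the starts was compared next, over the 250 bases upstream of the outermost start in RefSeq and with 1 start for each gap. Starts at divergent gaps with a peak (n = 355) and without (n = 327) had almost the same GC content, with medians of 65.6% and 64.8%, and the same median of 23 CpG dinucleotides. Their ratio of observed to expected CpG was 0.871 and 0.887. At isolated starts the contrast was wider: GC content was 66.8% with a peak (n = 1906) and 59.2% without (n = 5460), with medians of 23 and 13 CpGs. Tandem starts lay between, with 20 CpGs where the gap had a peak (n = 118) and 14 where it had none (n = 209). Over all 13150 starts the median was 18 CpGs.

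Of the motifs printed above, each searched on both strands and none contained in another, the CCAAT box occurred before 44.8% of divergent starts with a peak (interval 39.7 to 49.99) and 35.8% without (30.8 to 41.1), and before 34.9% of all starts. GGGCGG occurred before 73.0% (68.1 to 77.3) and 63.0% (57.6 to 68.1), against 56.3% of all, and before 73.7% of tandem and 73.5% of isolated starts with a peak. For CCAAT the divergent intervals with and without a peak overlap, and for GGGCGG they lie next to each other. The CCAAT box stood before 38.1% of tandem and 37.1% of isolated starts with a peak. In gaps under 250 bp this window reaches into the neighbouring gene, and gaps with a peak were the wider ones. ACTTCCG occurred before 20.6% with a peak and 22.3% without, both above the 8.70% of all starts and the 9.39% of isolated starts with a peak, and before 12.7% of tandem starts with a peak. A TATA box (TATAAA) was found before 4.23% and 3.36%, against 9.70% of all starts, 3.39% of tandem and 5.35% of isolated starts with a peak. The motif GCATGCGC, the core of the site bound by NRF1, stood before 7.04% and 7.65%, against 3.76% of all starts, 4.24% of tandem and 5.77% of isolated starts with a peak. These matches are letters in a window, not bound sites.

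Gene lists were then read against the 36.7% of all gaps with a peak. A gap belonged to a list if either gene did. Gaps at genes of the transcription and splicing machinery had a peak in 31 of 60 cases (51.7%, interval 39.3 to 63.8). Of these 31 gaps 23 were covered whole (74.2%), against 50.1% of all gaps with a peak and 60.3% of divergent gaps with a peak. Of the 60 gaps, 30 were divergent and 5 convergent, against 732 and 333 of all 1987. A peak lay in 20 of these 30 divergent gaps (66.7%), against 51.2% of all divergent gaps. The part of orientation in the list's share was not tested. The highest of the list were POLR2I/TBCB (14), next to a subunit of RNA polymerase II, HNRNPA2B1/CBX3 (13), whose hnRNP protein packages pre-mRNA, and ACTMAP/SNRPA (12), whose SNRPA is a U1 snRNP protein. CCND3/TAF8 and CDC26/PRPF4 had none. Cytosolic ribosomal protein genes had 14 of 28 (interval 32.6% to 67.4%), led by PIDD1/RPLP2 with 8, and none at MED22/RPL7A. Translation factors had 12 of 26 (46.2%), with a peak in 3 of their 9 divergent gaps (33.3%, against 51.2% of all divergent gaps) and 4 of their 6 tandem gaps. Among the tandem ones was EIF4E1B/TSPAN17 with 7. Its summit lay 114 bp before the start of TSPAN17 and 726 bp past the end of EIF4E1B. The intervals of ribosomal and translation genes include the share of all gaps.

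Of 41 gaps beside oxidative phosphorylation genes, 23 were divergent, and 12 of the 23 had a peak (52.2%), near the 51.2% of all divergent gaps. These genes encode subunits and assembly factors of the mitochondrial respiratory chain and ATP synthase, and they had a peak at 19 of 41 gaps (46.3%, interval 32.1 to 61.3), with 9 at GPD1/COX14, 8 at TEPSIN/NDUFAF8 and 7 at CCDC127/SDHA, where SDHA is the catalytic subunit of complex II. ATP5F1A/HAUS1, next to the ATP synthase alpha subunit, had none. Mitochondrial ribosomal proteins had 12 of 34 (35.3%), with 7 at APBA3/MRPL54. Import and chaperonin genes had 6 of 12, with 5 at HSPD1/HSPE1 and 4 at TOMM70/LNP1. The peak at HSPD1/HSPE1 was 1710 bp wide, reached over its 104 bp gap into both genes and had a total signal of 2841. Aminoacyl-tRNA synthetase genes had 5 of 15, with 7 at EARS2/UBFD1.

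DNA repair genes had a peak at 15 of 38 gaps (39.5%, interval 25.6 to 55.3), close to all gaps, and at 12 of their 24 divergent gaps, near the 51.2% of all divergent gaps. DESI1/XRCC6, where XRCC6 encodes Ku70 of DNA end joining, reached 9. CHEK2/HSCB, with a checkpoint kinase gene, reached 7. No peak was listed at DDB1/TKFC or at the convergent gap BRCA2/N4BP2L1. Replication and cell cycle genes had 12 of 28 (42.9%), with 12 at PCNA/CDS2, where PCNA is the sliding clamp of DNA polymerases, 9 at VPS35/ORC6 and 9 at UFD1/CDC45. The gap CCNA2/BBS7, beside the cyclin A2 gene, had none. DEAD and DEAH box helicase genes had 7 of 22, with 8 at CCDC47/DDX42, and 4 of their 13 divergent gaps (30.8%), against 51.2% of all divergent gaps.

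Some lists lay lower without leaving the range of all gaps. Proteasome genes had 4 of 19 (21.1%, interval 8.51 to 43.3), with 7 at PSMG1/BRWD1, 5 at HPD/PSMD9, and 6 at PSME2/RNF31, where the peak covered 4.17% of the gap alone. A peak lay in 3 of their 6 divergent gaps, near the 51.2% of all divergent gaps, and in none of their 5 convergent gaps. Of the 19 gaps 3 lie on chromosome 6, none with a peak. Replication-dependent histone genes had 5 of 18 (27.8%, interval 12.5 to 50.9) and 2 of their 12 divergent gaps, against 51.2% of all divergent gaps. Of the 18 gaps 14 lie on chromosome 6, where 3 had a peak, and so do 10 of the 12 divergent ones, of which 1 had a peak. The maximum coverage was 6 at the gap beside H4C16 and 4 at H2BC21/H2AC20, and no peak was listed at H2AC1/H2BC1. Tissue-restricted clustered families, such as olfactory receptors and keratins, had 2 of 11, at LOC124904790/CYP2S1 (3) and DEFB124/REM1 (2). Numbered zinc finger genes had 15 of 43 (34.9%), led by FIZ1/ZNF524 with 15 and ZSCAN32/ZNF174 with 13. RAB GTPase genes had 5 of 10, with 15 at MIA/RAB4B and 7 at RAB2B/TOX4. The list shares followed from few gaps each, and 1 of the 15 intervals, that of transcription and splicing machinery, left out the share of all gaps. With gaps of at most 500 bp that interval (34.3 to 63.5) took in the 37.4% of all such gaps, and that of cytosolic ribosomal proteins, 59.1% (38.7 to 76.7), left it out instead.

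**Figure D5:**
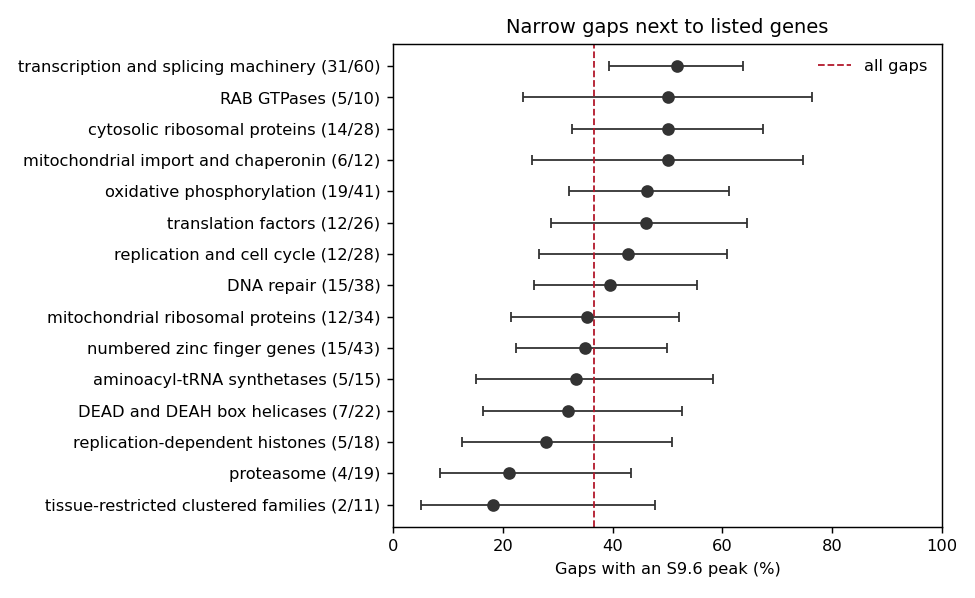
Share of gaps with an S9.6 peak (%, x axis) for gaps next to the genes of each list, with 95% Wilson intervals as bars and the count of gaps with a peak over all gaps of the list in brackets. The dashed line is the 36.7% of all gaps, and the interval of transcription and splicing machinery (39.3 to 63.8) lies to its right, which was not so with gaps of at most 500 bp (34.3 to 63.5 against 37.4%).

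Among close pairs known from textbooks, 5 of the 8 that form such gaps had a peak, against 36.7% of all gaps and 51.2% of divergent gaps. The pairs are few, and no interval was computed for them. NPAT/ATM, which joins a histone transcription coactivator to the DNA damage kinase ATM, and OSGEP/APEX1, with the base excision nuclease APEX1, each reached 6. HSPD1/HSPE1 and GART/SON reached 5 and SARS2/MRPS12 reached 3, with total signals of 2841, 2302 and 2287. All 5 are divergent, as are COL4A1/COL4A2 and TAP1/PSMB9, and SURF1/SURF2 is of unmatched strand. No peak was listed at COL4A1/COL4A2, at SURF1/SURF2 or, on chromosome 6 itself, at TAP1/PSMB9 in the major histocompatibility complex. The spans of PPAT/PAICS and TOE1/MUTYH overlap in this annotation, so these pairs form no gap.

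Other annotated genes were rare in the gaps. A lncRNA gene reached into 117 gaps, of which 45 had a peak (38.5%, interval 30.1 to 47.5), and 1854 gaps held no further gene, of which 678 had one (36.6%, 34.4 to 38.8). Orientation gave the same order in gaps with no further gene, at 51.0% of 708 divergent, 34.1% of 302 tandem and 8.87% of 327 convergent gaps. A small RNA gene lay in 6 gaps and a peak in 3 of them, all with a miRNA gene: TAFA2/USP15 with MIR6125, C17orf75/ZNF207 with MIR632 and TIGD1/EIF4E2 with MIR5001.

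Chromosomes differed in the share of gaps with a peak. On chromosome 19, which had the most gaps, 94 of 210 had one (44.8%, interval 38.2 to 51.5), against 36.7% of all gaps. A maximum of at least 5 was reached in 64 of those 94 (68.1%), against 362 of the 729 gaps with a peak on all chromosomes (49.7%). On chromosome 1 a peak lay in 56 of 202 gaps (27.7%, interval 22.01 to 34.3). Chromosome 6 stood lowest with 12 of 122 (9.84%, interval 5.72 to 16.4). None of the 33 gaps between HLA-F and HLA-DPB1 had a peak, which allows a share of up to 9.09% by the limit of 3 counts (Wilson upper limit 10.4%), and outside that region 12 of 89 did (13.5%, interval 7.88 to 22.1). Only peaks on chromosomes 1 to 22 were searched, so any peaks listed on alternate copies of the HLA region were not counted. Divergent gaps of chromosome 6 had a peak in 15.7% of 51 cases, the lowest of the 20 chromosomes compared by orientation, and those of chromosome 7 the highest, 72.0% of 25. Chromosome 6 had 843 peaks in all, against 883 on chromosome 4 and 2077 on chromosome 5, where 27.7% and 34.3% of gaps had a peak, and the part of this in its share was not tested. No gap of chromosome 8 had a matched strand. Chromosome 21 had no gap known to be convergent and so was not among those 20 chromosomes, and a peak lay in 5 of its 6 divergent gaps.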

How the data were processed

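Per the labels, A549 cells were profiled by CUT&Tag, in which an antibody tethers a transposase that tags nearby DNA. The authors deposited for the S9.6 library a peak list whose total signal and maximum coverage are whole numbers, unscaled for depth as far as the values show. The smallest total signal was 745. Per the submitters' processing notes, the tools included SEACR 1.3, Bowtie2 2.4.2, fastp 0.23.2, deepTools 3.5.2, bedtools 2.30.0 and SAMtools 1.9, with GRCh38. Not given in the sources used here were the peak threshold, any IgG control and the handling of duplicates, which can all change which weak peaks are listed.

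Gaps, overlaps and summaries were computed in Python 3.11.15 with pandas 2.3.3 and scipy 1.17.1, from RefSeq gene spans and promoter entries of GRCh38.p14. Overlap counting was checked on simulated spans. Coordinates are 1-based. Shares carry 95% Wilson intervals that treat gaps or peaks as independent and describe this list. No p-value was computed. The members and gene lists were chosen with earlier results of these data known. Named gaps were the 20 highest, the 3 highest of each orientation, the largest and widest, the top 3 and first 2 without a peak of each list, and textbook pairs. Others, such as TRIM46/MUC1, GPX4/SBNO2, MC1R/TUBB3 and BOLA2B/SLX1A, were named after their values were seen. The planned motif for NRF1 was shortened to its core, and of divergent gaps the right-hand start was used. Some gaps that this rule names are not reported here.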

Additional observations from a re-analysis of the deposited data

How the results depend on the processing

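The number of members, the share of gaps with a peak and the median maximum coverage were recomputed under 11 other settings, all planned, and the summit share under all of these but the summit rule. Shares by orientation, width class and list were recomputed under 3 of them, and other values were not. The order divergent, tandem, convergent held in the 3 settings in which orientation was recomputed. Counting a peak only where its summit lay in the gap gave 332 members, 16.6% of gaps with a peak, a divergent share 19.2 percentage points above the convergent one in place of 42.5, and 25.7 points between the highest and lowest width class in place of 11.7. Asking for an overlap of 50% of gap or peak gave 30.6% of gaps and 51.9% of summits in the gap. Peaks with a maximum of at least 3 left 32.7% of gaps with a peak. A maximum of at least 5 left 365 members, 18.2% of gaps, a median maximum coverage of 6 and 55.6% of summits in the gap. The summit share was 38.5% with gaps of at most 500 bp, 50.4% with gaps of at most 2000 bp and 50.7% with gaps of at least 100 bp, against 44.9%. With gaps of at most 500 bp the list of transcription and splicing machinery had 48.8% (34.3 to 63.5), which takes in the 37.4% of all such gaps. Leaving out chromosome 6 gave 38.4% of gaps with a peak, and leaving out chromosome 19 gave 35.7%, against 36.7%. Of 70 further shares by orientation, width class or list, 45 stayed within their interval, and 21 of the other 25 moved under the summit rule. No paired analysis was possible because the S9.6 antibody has 1 library. Most listed peaks stand at a coverage of 2 or 3, and the number of reads is unknown, so a gap without a peak may hold signal under the authors' threshold.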
